A study of Mus musculus with 10 samples.

Results

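The loss of Mdm2 was examined in thymus that carries only mutant p53. The comparison took 5 of the 10 samples of a mouse expression series: 2 samples labelled p53(246/246)mdm2(-/-), called mdm2-null here, and 3 samples labelled p53(246/246)mdm2(+/+), called mdm2 wild-type here. Both groups were normal thymus of C57BL6/129 hybrid mice aged 4 to 5 weeks, and both carried the p53 allele numbered 246 on both chromosomes, so that no sample held wild-type p53. The other 5 samples of the series, 2 p53-null mdm2-null and 3 p53-null mdm2 wild-type, entered the model and gave the same contrast without any p53. Samples were chosen by genotype label alone, all 23332 array features were tested, and 14996 of them carried a single gene symbol, which left 14860 genes with 1 feature each.

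Mdm2 is the ubiquitin ligase that binds p53, blocks its transactivation domain and sends it to the proteasome. Loss of Mdm2 is lethal to the mouse embryo unless p53 function is removed too, so mdm2-null tissue can be studied only where p53 is absent or defective. p53 in turn activates the Mdm2 gene, and many mutant p53 proteins bind Mdm2 but have lost sequence-specific activation of target genes. The thymus is filled with T cell precursors that pass from a double negative stage to a proliferating, then double positive, stage and on to single positive cells. Wild-type p53 is a strong inducer of death in these cells. The labels do not give the part of Mdm2 that was deleted, the sex of the mice, whether a sample was pooled, or whether replicates were separate animals, so p-values measure only the spread between these samples.

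The tissue label was borne out by the markers. Cd8a read 12.68 and 12.44 (log2 units throughout) in the mdm2-null samples, against 12.79, 12.76 and 12.75 in the mdm2 wild-type samples, and the epithelial serine protease Prss16 read 11.34 and 11.25, against 11.68, 11.92 and 11.61. Sample medians lay between 6.1 and 6.24 and lower quartiles between 4.31 and 4.36. The 2 mdm2-null samples correlated at 0.978 across features, the mdm2 wild-type pairs at 0.985 to 0.988, and pairs across the genotypes at 0.972 to 0.979. Both mdm2-null arrays carry one prefix in their file descriptions and all 3 mdm2 wild-type arrays another, so mdm2 genotype and array set cannot be told apart. The Y-linked genes Kdm5d and Eif2s3y were high in all 5 samples: Kdm5d read 7.63 and 7.98 in the mdm2-null samples, against 8.12, 8.14 and 8.31 in the mdm2 wild-type samples. Of the 5 p53-null samples, mdm2 wild-type replicate 1 stood apart, with Kdm5d at 3.73 and Eif2s3y at 3.46; it enters the estimate of the spread and the p53-null contrast.

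At an adjusted p of 0.05, Mdm2 itself fell in the mdm2-null samples, and Agtrap and Alb rose. They were 3 of 23332 features (0.0129%), 2 of them higher (0.00857%) and 1 lower (0.00429%), by limma's moderated test with Benjamini-Hochberg adjustment.

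Mdm2 read 8.43 and 8.35 in the mdm2-null samples, against 9.61, 9.58 and 9.62 in the mdm2 wild-type samples. The groups were far apart and each was tight. The difference was -1.21 ± 0.10 (SE; 95% confidence interval -1.44 to -0.97; limma adjusted p = 0.00907), a 2.31-fold lower level. The signal left in the mdm2-null samples stood above the sample medians. A feature of this array summarises probes along a whole transcript, and with the deleted part not given, that signal does not tell how much functional transcript was left. In p53-null thymus the same feature differed by -1.17 (adjusted p = 0.00876). With any 1 of the 5 mutant p53 samples left out, Mdm2 missed the threshold, at adjusted p-values from 0.0528 to 0.0878, while the difference stayed between -1.25 and -1.17.

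Agtrap encodes a membrane protein that binds the angiotensin II type 1 receptor and promotes its internalisation. It read 8.23 and 8.37 in the mdm2-null samples, against 6.71, 6.63 and 6.66 in the mdm2 wild-type samples. Every mdm2-null value lay well above every mdm2 wild-type value, and the rise of 1.63 ± 0.10 (SE, limma adjusted p = 0.00203) was a 3.09-fold higher level. In p53-null thymus the same 2 genotypes gave 8.50 and 8.44 against 6.84, 6.81 and 6.86, a difference of 1.64 (adjusted p = 0.00191). The 2 contrasts share no samples, although they share 1 estimate of the spread.

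Alb encodes serum albumin, the main plasma protein made by hepatocytes. It read 10.97 and 11.84 in the mdm2-null samples, against 4.17, 3.99 and 4.15 in the mdm2 wild-type samples. Both mdm2-null samples lay above the upper quartile of all features (8.13 and 8.16), while all 3 mdm2 wild-type samples lay below the lower quartile of all features. The files used here hold no detection call, so the mdm2 wild-type values may be background and the change may be understated. The rise was 7.30 ± 0.52 (SE; 95% confidence interval 6.13 to 8.47; limma adjusted p = 0.00257). Without mdm2-null replicate 2, neither Agtrap nor Alb passed (adjusted p = 0.0538 for each).

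**Figure D1:**
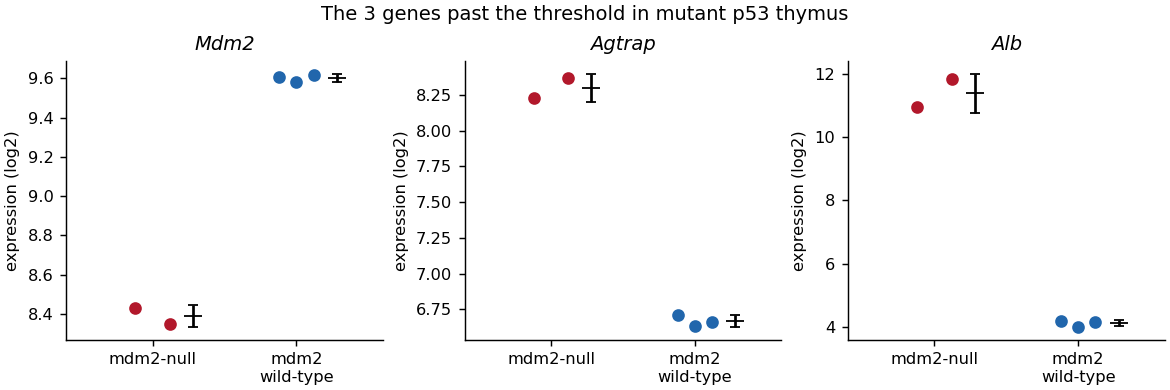
Log2 expression of Mdm2, Agtrap and Alb in each mutant p53 sample, with mdm2-null samples in red and mdm2 wild-type samples in blue; black bars are the group mean ± SD. The groups do not overlap for any of the 3 genes, and Alb spans 3.99 to 11.84.

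Beyond these 3 genes, the comparison was limited by having 2 mdm2-null samples. The count of 3 became 0 without mdm2-null replicate 2, 7 without replicate 1 of the p53-null mdm2 wild-type group, and 63 without either replicate of the p53-null mdm2-null group, which enters only the estimate of the spread. At an unadjusted p under 0.05, 3823 features (16.4%) differed, 1656 of them higher (7.1%) and 2167 lower (9.29%), where 1167 would be expected if nothing differed. Centring every array on its median turned that split to 2010 higher and 1603 lower, and quantile normalization gave 1997 and 2015, so the balance of small differences is not settled. Each gene below is therefore given with its values, and lists are counted by separation: a gene is separated when both mdm2-null samples lie on 1 side of all 3 mdm2 wild-type samples. Among the 14860 named genes, 2807 (18.9%) were separated and higher and 2833 (19.1%) separated and lower, and the median log2 difference was 0.01. Each list count below is to be read against these shares, which median centring turned to 22.8% and 14.3%. Larger differences were mostly higher values: 157 named genes (1.06%) were at least 1 log2 unit higher and 34 (0.229%) at least 1 lower. The 2 mdm2-null samples differed in this. At least 2 log2 units from the mdm2 wild-type mean, replicate 1 had 33 features higher and 34 lower, and replicate 2 had 96 higher and 22 lower.

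The other partners of Mdm2 were examined next. Mdm4, the relative of Mdm2 that pairs with it and also restrains p53, read 9.24 and 9.16 in the mdm2-null samples, against 9.78, 9.52 and 9.91 in the mdm2 wild-type samples. That difference of -0.54 did not pass (adjusted p = 0.121), although the groups did not overlap. Of 13 measured regulators and relatives of p53, 2 were separated and higher (15.4%) and 5 separated and lower (38.5%, Mdm2 among them). Usp7, the deubiquitinase that stabilises Mdm2, differed by -0.23 (adjusted p = 0.41), and Rchy1, another ligase of p53 also called Pirh2, by 0.29 (adjusted p = 0.369). Among 20 measured genes that neighbour Mdm2 on its chromosome, 10 on each side, none passed, and the lowest adjusted p was 0.113. Of these neighbours, 5 were separated and higher and 9 separated and lower, against 18.9% and 19.1% of named genes. Their differences ran from -0.55 for Helb to 0.51 for Kcnmb4. Of 21 other ubiquitin ligases and conjugating enzymes, 3 were separated and higher and 7 separated and lower, with Ube2d2a, a conjugating enzyme that works with Mdm2 in vitro, at 0.69 (adjusted p = 0.111) and the ligase Itch at -0.43 (adjusted p = 0.129).

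Targets of p53 showed no shared direction. Cdkn1a, which encodes the cell cycle inhibitor p21 and is the best known arrest target, read 5.93 and 5.75 in the mdm2-null samples, against 5.75, 6.22 and 5.79 in the mdm2 wild-type samples. These values overlap, and the difference was -0.08 (adjusted p = 0.914). Of 26 measured targets of arrest and stress, 4 were separated and higher (15.4%) and 9 separated and lower (34.6%), with a list median of -0.11. Btg2, an antiproliferative target, read 11.12 and 10.94 in the mdm2-null samples, against 11.77, 11.68 and 11.63 in the mdm2 wild-type samples, a difference of -0.66 (adjusted p = 0.0897). Ddit4, which restrains mTORC1 under stress, read 8.34 and 7.34, against 10.19, 9.75 and 9.78. Its difference of -2.07 ± 0.68 (SE) did not pass (adjusted p = 0.191). That SE is pooled over all 4 groups, and the p53-null mdm2-null pair, at 7.43 and 10.13, had the widest spread (SD 1.91). Sesn2, a stress-induced regulator of the same kinase, differed by -0.62 (adjusted p = 0.154), and Ddit4l, a relative of Ddit4, by 1.07 (adjusted p = 0.117).

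Death genes were close to level. Of 13 measured apoptotic targets of p53, none was separated and higher and 3 were separated and lower, and the list median was 0.04. Bbc3, which encodes Puma and kills thymocytes downstream of p53, read 5.09 and 5.37 in the mdm2-null samples, against 5.67, 5.33 and 5.60 in the mdm2 wild-type samples (adjusted p = 0.523). Pmaip1, which encodes Noxa, differed by -0.46 (adjusted p = 0.305). In the BCL2 family of 16 measured genes, 2 were separated and higher and 4 separated and lower, with a median of -0.01. Mcl1, a survival factor of thymocytes, differed by -0.34 (adjusted p = 0.369) and Bcl2l11, which encodes Bim and drives negative selection, by -0.27 (adjusted p = 0.371).

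Genes of hepatocytes formed the broadest group at higher levels without Mdm2. Of 46 measured liver products, spread over plasma carriers, apolipoproteins and coagulation factors, and enzymes and transporters, 42 were separated and higher (91.3%, against 18.9% of named genes) and none separated and lower. Alb alone passed the test. Their median difference was 1.85, against 0.01 over named genes. The mean level over the 46 genes was 5.94 and 6.91 in the mdm2-null samples, against 4.42, 4.51 and 4.39 in the mdm2 wild-type samples.

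The promoter sequences of 3 of these genes are shown because the genes stand together in the data and hepatocyte promoters share binding sites of the liver factor HNF1. Each runs 250 bases up to the annotated start, 5′ to 3′ on the gene's strand, from RefSeq on GRCm38.p6, and capitals mark GTTAAT or its reverse complement ATTAAC, one arm of the HNF1 site. Alb lies at chr5:90460620-90460869 (plus strand), Fgb at chr3:83049864-83050113 (minus strand) and Fga at chr3:83025903-83026152 (plus strand), with the match ending 26, 23 and 37 bases before the start in that order.
Alb: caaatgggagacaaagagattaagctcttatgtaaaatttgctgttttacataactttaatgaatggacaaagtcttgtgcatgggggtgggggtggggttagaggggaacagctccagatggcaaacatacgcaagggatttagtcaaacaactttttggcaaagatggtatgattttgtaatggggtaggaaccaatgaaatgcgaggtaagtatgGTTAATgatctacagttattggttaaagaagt
Fgb: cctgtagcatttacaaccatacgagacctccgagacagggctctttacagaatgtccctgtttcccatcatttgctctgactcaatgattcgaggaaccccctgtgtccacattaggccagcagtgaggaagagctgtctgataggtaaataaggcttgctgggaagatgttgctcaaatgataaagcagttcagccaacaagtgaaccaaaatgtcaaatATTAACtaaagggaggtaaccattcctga
Fga: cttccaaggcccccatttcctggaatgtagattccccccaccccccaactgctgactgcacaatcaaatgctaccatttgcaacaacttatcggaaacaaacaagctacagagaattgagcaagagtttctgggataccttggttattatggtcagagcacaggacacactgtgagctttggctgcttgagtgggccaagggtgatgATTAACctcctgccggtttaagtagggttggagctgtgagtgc
They are the liver products with the widest difference whose window holds the motif. Other holders were Vtn, Slco1b2 and Afm, which were separated and higher, and G6pc, Apoe and Afp, which were not separated. On either strand, the motif occurred in 9 of 41 windows of the liver products (22.0%) and in 2113 of 32851 windows of all genes (6.43%). The 41 windows belonged to 36 of the 46 liver products, and a link of the motif to the rise was not tested. A match describes these letters only.

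Plasma carriers came first. Ahsg, the fetuin that binds calcium phosphate in plasma, read 8.0 and 9.22 in the mdm2-null samples, against 3.67, 3.75 and 3.65 in the mdm2 wild-type samples. Its difference of 4.92 ± 0.77 (SE) did not pass (adjusted p = 0.0696). Ttr, the carrier of thyroxine, read 8.36 and 9.95, against 5.35, 5.47 and 4.80 (difference 3.95, adjusted p = 0.0897). Both were high in each mdm2-null sample and highest in replicate 2. Rbp4, the carrier of retinol, differed by 3.55 (adjusted p = 0.0833), and Hpx, which binds free haem, by 3.95 (adjusted p = 0.0915). Of the 15 genes of the list, 2 were not separated. Afp, the albumin relative of fetal liver, read 4.63 and 4.58, against 4.60, 4.65 and 4.54, and Orm2 differed by -0.08.

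Apolipoproteins and coagulation factors gave the same order of samples. Apoa2, an apolipoprotein of HDL, read 7.74 and 9.71 in the mdm2-null samples, against 5.53, 4.85 and 5.14 in the mdm2 wild-type samples (difference 3.56, adjusted p = 0.113). Fgb, a fibrinogen chain, read 6.22 and 8.58, against 4.03, 3.98 and 3.98 (difference 3.41, adjusted p = 0.121). Apoh, a phospholipid-binding glycoprotein, differed by 3.35 (adjusted p = 0.101), and Plg, the precursor of plasmin, by 2.38 (adjusted p = 0.121). Apoe, which macrophages also make, was the exception at 12.10 and 11.88, against 11.95, 11.97 and 11.78. Among enzymes, Uox, the urate oxidase, read 5.97 and 7.24, against 3.29, 3.43 and 3.32, Hpd of tyrosine breakdown differed by 2.31 (adjusted p = 0.121), and Arg1 of the urea cycle by 2.11 (adjusted p = 0.118).

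The 2 mdm2-null samples differed in these genes. Replicate 2 was above replicate 1 for 42 of the 46 liver products, and the median distance from the mdm2 wild-type mean was 1.26 in replicate 1 and 2.37 in replicate 2. Of 11 measured liver transcription factors, 7 were separated and higher (63.6%, against 18.9% of named genes) and none separated and lower, with differences from 0.01 to 0.68 and a median of 0.22. Apart from Cebpa, the separated factors read from 3.61 to 5.13 in the mutant p53 samples, below the sample medians, and may be near background. Hnf4a, a master factor of hepatocytes, read 4.57 and 4.87 in the mdm2-null samples, against 4.55, 4.43 and 4.65 in the mdm2 wild-type samples. Cebpa, shared by hepatocytes, adipocytes and myeloid cells, read 7.43 and 7.40, against 6.74, 6.80 and 6.67 (difference 0.68, adjusted p = 0.0976). Medullary thymic epithelium switches on genes of other tissues through Aire, and Aire itself read 7.06 and 7.37, against 7.93, 7.84 and 7.56 (difference -0.57, adjusted p = 0.407). In bulk tissue a different number of cells of a type and a different amount of RNA per cell cannot be told apart, and the source of the liver transcripts was not tested.

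Fat cell genes had higher values in both mdm2-null samples for part of the list, further up in replicate 2 than in replicate 1. Of 19 measured adipocyte genes, 11 were separated and higher (57.9%) and none separated and lower, with a median of 0.75. The mean level over the list was 5.34 and 6.52 in the mdm2-null samples, against 5.01, 5.15 and 5.01 in the mdm2 wild-type samples. Ucp1, the uncoupling protein of brown fat, read 5.90 and 9.20, against 4.82, 5.42 and 5.63 (difference 2.26, adjusted p = 0.325). Cidea, a lipid droplet protein, read 4.92 and 7.87, against 4.29, 4.42 and 4.28 (difference 2.07, adjusted p = 0.218). Of the other defining genes, Adipoq was separated and higher, with a difference of 1.84 (adjusted p = 0.31). Plin1 and Fabp4 overlapped between the groups, and their differences of 0.75 and 0.39 turned to -0.11 and -0.16 without replicate 2. Prdm16, Ppargc1a and Dio2 of the list differed by 0.07, 0.05 and 0.09. Replicate 2 was above replicate 1 for 17 of the 19 genes, and the list median came to 0.20 without it. Slc2a4, the insulin-responsive glucose transporter GLUT4, had the lowest adjusted p of the list and was high in both samples, at 6.87 and 6.72, against 5.37, 5.66 and 5.45 (difference 1.30, adjusted p = 0.0901).

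**Figure D2:**
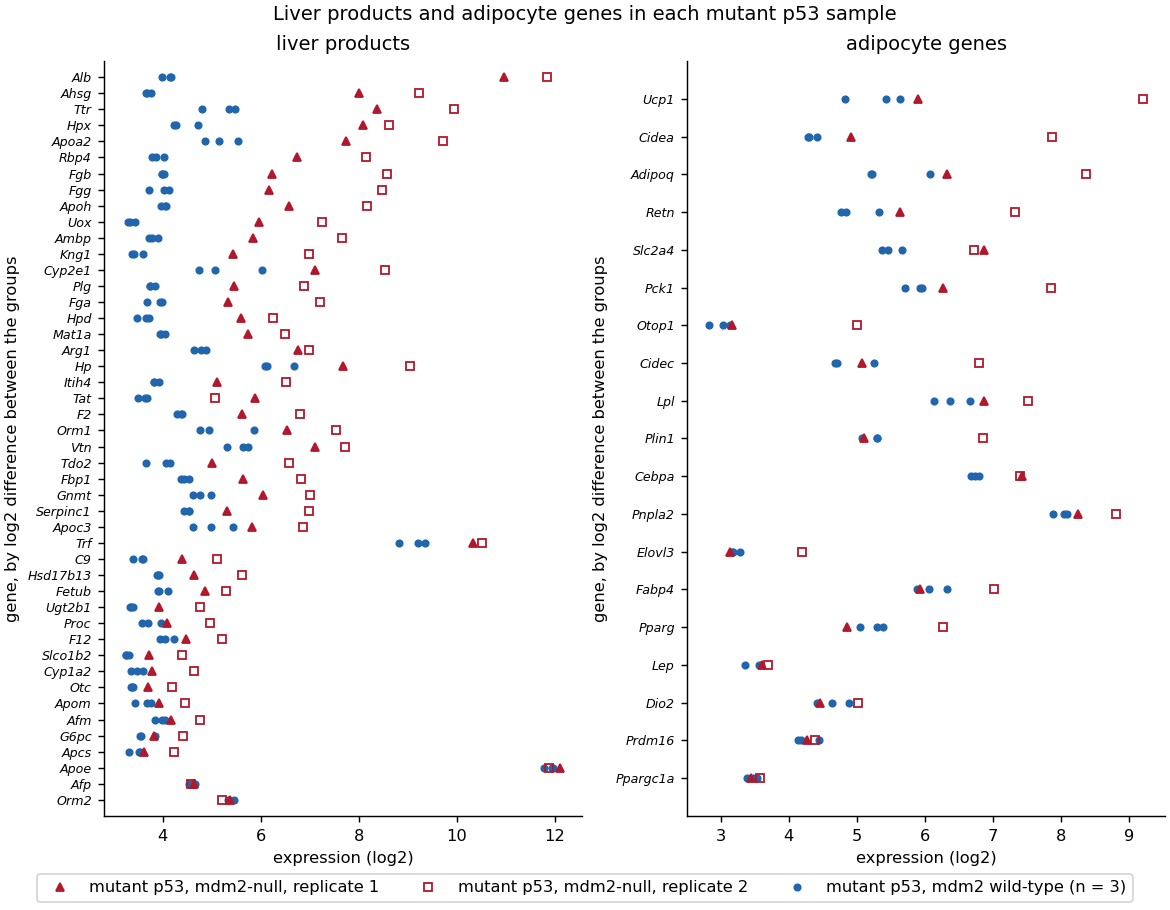
Log2 expression of 46 liver products (left) and 19 adipocyte genes (right) in each mutant p53 sample; red triangles and open squares are mdm2-null replicates 1 and 2, and blue dots the 3 mdm2 wild-type samples. Both red symbols lie right of the blue ones for 42 liver products and 11 adipocyte genes, and replicate 2 is mostly the further right.

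Genes of muscle, pancreas and red cells were counted the same way. Of 16 measured skeletal muscle genes, 7 were separated and higher (43.8%, against 18.9% of named genes) and none separated and lower, with a median of 0.16. Tnni2, a troponin of fast fibres, read 5.94 and 6.03 in the mdm2-null samples, against 5.08, 5.69 and 5.08 in the mdm2 wild-type samples (adjusted p = 0.14). The defining muscle genes Acta1, Ckm and Mylpf overlapped between the groups, with differences of 0.14, -0.05 and 0.45. Tnnt3, also defining, was separated at 0.10. None of 10 acinar pancreas genes was separated in either direction, and the defining gene Cpa1 read 3.47 and 3.40, against 3.45, 3.47 and 3.57. Of 16 erythroid genes, 4 were separated and higher and 2 separated and lower, with a median of 0.03, where p53-null thymus gave 0.37. The defining genes Alas2 and Epb42 overlapped between the groups, at -0.02 and -0.03, and Slc4a1, also defining, was separated and higher at 0.23. Tfrc and Slc25a37 were separated and lower, at -0.67 and -0.93. A feature that Hbb-b1 and Hbb-b2 of adult beta-globin share was singled out after its values were seen. It read 9.78 and 10.29, against 8.34, 8.38 and 8.98 (difference 1.46, limma adjusted p = 0.134). In p53-null thymus the same feature differed by 3.78 and passed (limma adjusted p = 0.0213).

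Thymocyte genes stood slightly lower without Mdm2. Of 17 measured genes of thymocyte identity, none was separated and higher and 10 were separated and lower (58.8%, against 19.1% of named genes), with a median of -0.21 and no gene past the threshold. Cd4, the coreceptor of helper cells, read 10.74 and 11.04 in the mdm2-null samples, against 11.36, 11.28 and 11.27 in the mdm2 wild-type samples (difference -0.41, adjusted p = 0.195). Cd3e and Cd3d of the T cell receptor complex differed by -0.01 and 0.02. Of 16 double positive genes, 2 were separated and higher and 9 separated and lower (56.2%), with a median of -0.24. Rag2, a subunit of the recombinase that rearranges receptor genes, read 8.40 and 8.50, against 9.18, 9.16 and 9.12 (difference -0.70, adjusted p = 0.174).

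Genes of the earliest thymocytes and the Notch programme were mixed. Notch3, a Notch receptor that is high before the double positive stage, read 7.96 and 7.85 in the mdm2-null samples, against 7.39, 7.02 and 7.18 in the mdm2 wild-type samples (difference 0.70, adjusted p = 0.091). Hhex, a homeobox factor of progenitors, read 5.42 and 5.20, against 4.59, 4.65 and 4.08 (difference 0.87, adjusted p = 0.147). Il7r, the receptor of interleukin 7, was on the lower side at 8.29 and 8.30, against 8.96, 8.72 and 8.92 (difference -0.58, adjusted p = 0.261). Of 18 early genes, 3 were separated in each direction. In the Notch and Myc list of 18 genes, 6 were separated and higher and 3 separated and lower, and Myc read 9.64 and 9.46, against 9.28, 9.25 and 9.34 (adjusted p = 0.384).

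Genes induced by the T cell receptor had a list median of -0.27 (-0.36 to -0.11 over the alternatives). Of the 18 genes, 2 were separated and higher and 7 separated and lower (38.9%). The median distance from the mdm2 wild-type mean was -0.11 in mdm2-null replicate 1 and -0.36 in replicate 2. Pdcd1, which encodes the inhibitory receptor PD-1, read 6.95 and 6.38 in the mdm2-null samples, against 7.58, 7.69 and 7.50 in the mdm2 wild-type samples (difference -0.93, adjusted p = 0.103). Nr4a2 and Egr2, transcription factors switched on by receptor signals, differed by -0.71 (adjusted p = 0.138) and -0.57 (adjusted p = 0.205), while Egr1 of the same family as Egr2 differed by 0.35 (adjusted p = 0.237). Members of the list thus stood on both sides, and p53-null thymus gave a list median of -0.04. Of 15 genes of mature single positive cells, 1 was separated and higher and 6 separated and lower, with Cd40lg, the helper ligand, at -0.78 (adjusted p = 0.193) and the chemokine receptor Cxcr3 at 0.92 (adjusted p = 0.387).

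Glucocorticoid and interferon response genes were mostly on the lower side. Of 15 glucocorticoid response genes, none was separated and higher and 9 separated and lower (60.0%, against 19.1% of named genes), with a median of -0.26. Tsc22d3, which encodes GILZ, a standard readout of the receptor, read 7.37 and 7.15 in the mdm2-null samples, against 8.29, 8.25 and 8.47 in the mdm2 wild-type samples (difference -1.08, adjusted p = 0.334). Under median centring 5 of the 15 were separated and lower (33.3%, against 14.3% of named genes), and under quantile normalization 6 (40.0%, against 17.4%). Of 18 interferon response genes, none was separated and higher and 8 separated and lower (44.4%), with a median of -0.21; Zbp1, a nucleic acid sensor, read 8.01 and 7.96, against 8.43, 8.71 and 8.74 (difference -0.64, adjusted p = 0.174). The co-chaperone Dnaja1 read 7.69 and 7.75, against 8.59, 8.57 and 9.46 (difference -1.15, adjusted p = 0.128). It belongs to a list of 15 immediate early and heat shock genes. Of that list, 1 was separated and higher and 4 separated and lower (26.7%, against 19.1% of named genes). Under median centring 2 of the list were separated and lower (13.3%, against 14.3%).

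Proliferation genes were also mostly on the lower side. Of 28 measured genes of G2 and M phase, none was separated and higher and 10 were separated and lower (35.7%). The list median was -0.21 and ranged from -0.32 to -0.09 over the alternatives. The median distance from the mdm2 wild-type mean was -0.09 in mdm2-null replicate 1 and -0.32 in replicate 2. Hmmr, which organises the mitotic spindle, read 7.70 and 7.54 in the mdm2-null samples, against 8.37, 8.16 and 8.32 in the mdm2 wild-type samples (difference -0.66, adjusted p = 0.0931). The mitotic kinesins Kif2c and Kif20a differed by -0.54 (adjusted p = 0.127) and -0.45 (adjusted p = 0.169). Of 26 genes of G1/S and DNA replication, 2 were separated and higher and 11 separated and lower (42.3%). The list median was -0.20 and ranged from -0.28 to -0.04 over the alternatives. The median distance from the mdm2 wild-type mean was -0.04 in replicate 1 and -0.28 in replicate 2. The 2 E cyclins, which open S phase, lay on opposite sides. Ccne2 read 8.28 and 8.22, against 8.97, 8.97 and 9.08 (difference -0.76, adjusted p = 0.137), and Ccne1 read 8.89 and 8.52, against 8.39, 8.23 and 7.94 (difference 0.51, adjusted p = 0.186). Of 22 cyclin-dependent kinases, inhibitors and E2F or pocket proteins, 3 were separated and higher and 9 separated and lower, with Rbl2, a pocket protein of resting cells, at -0.44 (adjusted p = 0.131) and the inhibitor Cdkn2c at 0.53 (adjusted p = 0.174). Of 20 DNA repair and checkpoint genes, none was separated and higher and 10 separated and lower (50%, against 19.1% of named genes), with a median of -0.16. Lig4, the ligase of end joining, read 9.98 and 9.95, against 10.49, 10.46 and 10.34 (difference -0.47, adjusted p = 0.121). Of 9 measured replication-dependent histone genes and their regulators, 2 were separated and higher and 3 separated and lower.

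**Figure D3:**
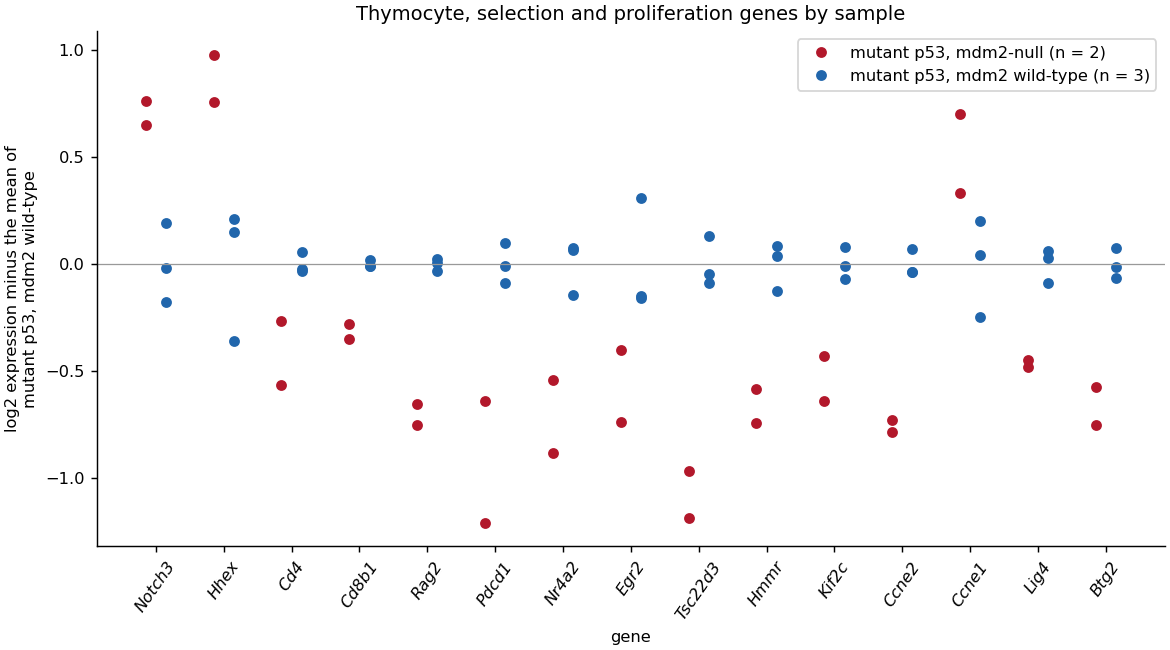
Log2 expression minus the mean of the mdm2 wild-type samples for 15 named genes of thymocytes, selection and proliferation; red points are the 2 mdm2-null and blue points the 3 mdm2 wild-type samples of mutant p53 thymus. Notch3, Hhex and Ccne1 lie above 0 and the other 12 genes below it in both mdm2-null samples, and none of the 15 passed the test.

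Stromal genes were separated in both directions. Of 21 measured genes of pericytes and vessels, 9 were separated and higher (42.9%) and 6 separated and lower (28.6%). Rgs5, a pericyte regulator of G protein signals, read 6.74 and 6.61 in the mdm2-null samples, against 8.23, 7.58 and 8.09 in the mdm2 wild-type samples (difference -1.30, adjusted p = 0.113). Angpt1, the ligand of the vessel receptor Tie2, read 5.51 and 5.06, against 6.45, 6.45 and 6.13 (difference -1.06, adjusted p = 0.106). The endothelial genes Tie1 and Emcn differed by 0.49 (adjusted p = 0.137) and 0.53 (adjusted p = 0.144). The defining endothelial genes lay on opposite sides. Cdh5 was separated and higher at 6.05 and 6.42, against 6.02, 5.94 and 5.81 (difference 0.31, adjusted p = 0.45). Pecam1 was separated and lower at 9.32 and 9.29, against 9.42, 9.52 and 9.43 (difference -0.16, adjusted p = 0.583). The defining pericyte receptor Pdgfrb, on the other side from Rgs5, read 6.36 and 6.31, against 6.23, 6.28 and 6.26 (difference 0.08, adjusted p = 0.838). In p53-null thymus Rgs5 differed by -1.53 and Angpt1 by -0.71.

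Of 21 thymic epithelial genes, 2 were separated and higher, Pax1 and Il7, and 3 separated and lower, Prss16, Aire and Ccl25. Pax1, a factor of the epithelial lineage, read 8.76 and 8.52 in the mdm2-null samples, against 7.88, 8.18 and 7.43 in the mdm2 wild-type samples (difference 0.81, adjusted p = 0.126), and Il7, the cytokine that feeds early thymocytes, differed by 0.74 (adjusted p = 0.193). Prss16, the protease given above, differed by -0.44 (adjusted p = 0.168), and Ccl25, the chemokine that draws in progenitors, by -0.13 (adjusted p = 0.65). Foxn1, the factor that defines the lineage, read 7.23 and 6.71, against 6.55, 6.72 and 6.55. Of 20 fibroblast and matrix genes, 5 were separated and higher and 2 separated and lower, with fibronectin gene Fn1 at 0.93 (adjusted p = 0.391). Of 19 macrophage genes, 6 were separated and higher and 2 separated and lower. Cd14, the lipopolysaccharide coreceptor, read 7.08 and 6.68, against 5.44, 5.99 and 5.31 (difference 1.30, adjusted p = 0.136), while the complement gene C1qb differed by -0.45 (adjusted p = 0.234).

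Other cell types were counted last. Of 16 dendritic cell genes, 4 were separated and higher and 1 separated and lower, with Clec9a of cross-presenting cells at 0.83 (adjusted p = 0.128). Of 14 B cell genes, none was separated and higher and 3 separated and lower, with Fcer2a, which encodes CD23, at -0.92 (adjusted p = 0.165). Of 17 granulocyte and mast cell genes, 1 was separated and higher and 6 separated and lower (35.3%, against 19.1% of named genes), and the neutrophil gene S100a9 read 5.71 and 7.06 in the mdm2-null samples, against 8.21, 7.17 and 7.17 in the mdm2 wild-type samples (adjusted p = 0.638). Of 18 neural and neuroendocrine genes, 2 were separated and higher and 3 separated and lower; the beta tubulin Tubb2b read 8.10 and 8.19 in the mdm2-null samples, against 9.09, 9.68 and 9.38 in the mdm2 wild-type samples (difference -1.24, adjusted p = 0.0628), and the microtubule regulator Stmn2 read 4.88 and 4.62, against 4.06, 4.05 and 3.94 (difference 0.73, adjusted p = 0.0742).

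Genes just short of the threshold were spread over functions. On the higher side, Arsb, the lysosomal arylsulfatase B, read 7.24 and 7.15 in the mdm2-null samples, against 5.81, 6.14 and 5.63 in the mdm2 wild-type samples (difference 1.34, adjusted p = 0.0509). Klf15, a Kruppel-like transcription factor, read 6.28 and 6.10, against 5.28, 5.31 and 5.33 (difference 0.88, adjusted p = 0.0553). The deubiquitinase Usp48, the secretory cargo receptor Tmed10, the transcription factor Nfic and the adhesion protein Nectin1 differed by 1.01, 0.85, 1.32 and 0.97 (adjusted p = 0.0628 for each). On the lower side, Lysmd3 read 5.48 and 5.81, against 6.79, 6.73 and 6.86 (difference -1.15, adjusted p = 0.0628). Ing3, a subunit of a histone acetyltransferase complex, read 8.09 and 8.20, against 9.06, 8.89 and 8.84 (difference -0.78, adjusted p = 0.0628). Klhl9, an adaptor of CUL3 ligases, differed by -0.83 (adjusted p = 0.0628), and Pik3c2a, a class II phosphoinositide kinase, by -0.71 (adjusted p = 0.0731). None of these is a call, and their lack of overlap between the groups was a condition of the choice.

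The mdm2 effect was then set against the same contrast in thymus with no p53. No feature differed in effect at an adjusted p of 0.05 by limma's interaction term (0.0%). At an unadjusted p under 0.05 the count was 997 (4.27%), fewer than the 1167 expected if nothing differed. With 2 mdm2-null samples in each background, that does not show that the effects were equal. In p53-null thymus 5 features passed (0.0214%). Mdm2, Agtrap and Alb passed in both backgrounds, with differences between the backgrounds of -0.04, -0.01 and 0.58. Across 14860 genes the 2 sets of log2 differences had a Pearson correlation of 0.622, given as a description over genes that are not independent replicates, and in both backgrounds the mdm2-null arrays carry other name prefixes than the mdm2 wild-type arrays. Of the 2807 genes separated and higher in mutant p53 thymus, 943 were so in p53-null thymus too (33.6% of the mutant p53 genes and 51.1% of the 1845 p53-null genes, which are 12.4% of named genes). Of the 2833 separated and lower, 906 were shared (32.0%, and 48.7% of the 1861 p53-null genes, which are 12.5% of named genes). The liver products had a median of 1.85 in mutant p53 thymus and 1.63 in p53-null thymus, and adipocyte genes 0.75 and 0.43.

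The smallest unadjusted interaction p among named genes belonged to Alas2, the first enzyme of haem synthesis in red cell precursors, which differed by -0.02 in mutant p53 thymus and by 1.75 in p53-null thymus (interaction adjusted p = 0.995). Serpinb11 differed by 1.15 in mutant p53 thymus, which was 1.56 more than in p53-null thymus (interaction adjusted p = 0.995). Several genes near the threshold on the lower side had smaller differences without p53. Zmat1 gave -0.80 in mutant p53 and -0.22 in p53-null thymus, and Ing3 gave -0.78 and -0.28. Tubb2b of the same set gave -1.24 and -1.47. The set was chosen by small p-values and separation in mutant p53 thymus, so smaller differences elsewhere are expected from the choice alone. The unadjusted limma interaction p-values of Zmat1 and Ing3, 0.00771 and 0.0104, reuse the values that chose the genes and fail adjustment. Glucocorticoid response genes had list medians of -0.26 in mutant p53 and 0.00 in p53-null thymus, and Tsc22d3 differed by -1.08 and 0.34. In p53-null thymus Tsc22d3 was widely spread, at 7.26 and 9.09 in the mdm2-null samples, against 7.43, 7.48 and 8.60 in the mdm2 wild-type samples. The difference of list medians was not tested.

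**Figure D4:**
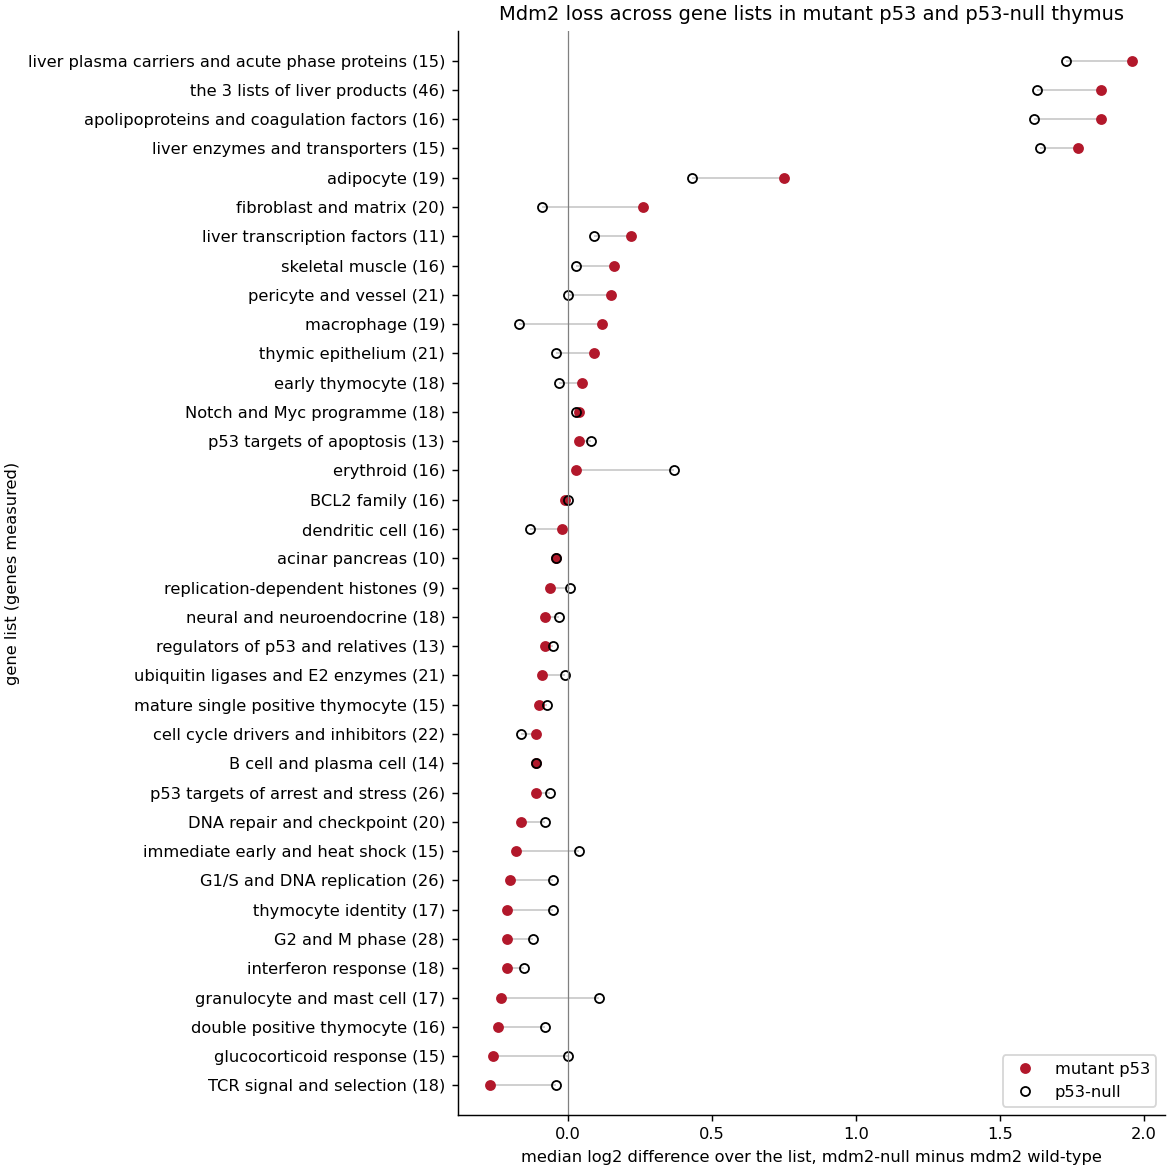
Median log2 difference, mdm2-null minus mdm2 wild-type, of each gene list in mutant p53 thymus (red) and in p53-null thymus (open circles), with the number of genes measured in brackets. Liver products lie between 1.62 and 1.96 in both backgrounds, adipocyte genes at 0.75 and 0.43, and every other list between -0.27 and 0.37.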

How the data were processed

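RNA of 10 thymus samples was hybridised to Affymetrix whole-transcript arrays after Trizol and RNeasy extraction and ribosomal RNA reduction, per the labels' protocols. The deposited values are log2 expression per feature, made by the authors, whose processing notes name Partek 6.5 and the mouse build mm8; the background correction and normalization are not given in the sources used here. No filter was applied, and the deposited log2 values were used as they stand. The number of arrays limits the precision.

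A model of 4 group means was fitted to all 10 samples with limma 3.58.1 (R 4.3.3), and p-values were adjusted by Benjamini-Hochberg over 23332 features at a threshold of 0.05. The model and its code were checked on simulated data with independent noise in each feature. The simulation held neither genes that vary together nor array sets, so it cannot speak for either. Features took gene symbols from the platform table: 14996 had 1 symbol, 1019 several and 7317 none, and a gene with several features kept 1. The 35 gene lists held 695 genes, 571 of them measured. Genes were named as Mdm2 and Cdkn1a, those past the threshold, and the next by p-value among separated genes, up to 10 in each direction. Named too were at most 5 of each list with the smallest p-value, besides its defining markers, and genes with the smallest interaction p-values. Other genes were named after their values were seen. Members and lists were chosen with earlier results of these data known. Replicate numbers do not pair the samples: deviations of same-numbered mdm2-null and mdm2 wild-type samples correlated at -0.06 and -0.1.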

Additional observations from a re-analysis of the deposited data

How the results depend on the processing

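The count of 3 features (2 higher, 1 lower) depended on the settings. It was 8 (7 higher) with the 5 mutant p53 samples alone, 26 (15 higher, 11 lower) with a trended and robust prior, 13 (7 and 6) with array weights, 7 (4 and 3) after quantile normalization, 11 (6 and 5) without the dimmer 25% of features and 143 (56 and 87) without the dimmer 50%. The plain linear model and median centring gave 2 lower calls each. With the replicate number as a block, which the numbers do not support, 5 features passed, 2 of them lower. With 1 sample left out it ranged from 0 to 63 (higher 0 to 46, lower 0 to 17): 0 without mdm2-null replicate 2, 7 without p53-null mdm2 wild-type replicate 1, and 63 without either p53-null mdm2-null replicate, where the lone sample adds nothing to the spread. The p53-null count of 5 was 13 without the dimmer 50% and 3 to 62 with a sample left out, and the interaction count of 0 became 0 to 2 (1 when p53-null mdm2-null replicate 2 or the third p53-null mdm2 wild-type sample was dropped, 2 when p53-null mdm2-null replicate 1 was). Mdm2 was called under 12 of 19 alternatives: it was -1.21 with adjusted p = 0.0953 in the 5 samples alone, -1.19 with adjusted p = 0.073 under the replicate block, and -1.25 to -1.17 without a mutant p53 sample. Agtrap was called under 18 of 19 (1.56 to 1.70) and Alb under 17 (6.86 to 7.74); Alb also missed in the plain linear model (adjusted p = 0.0556). The cause was not tested.

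Over 223 named genes, 4012 of 4129 values kept their direction and side of the threshold, and 43 changed sign, none of a called gene. Median centring gave Alas2 0.03, C1qa 0.01, Cd3e 0.04, Cela1 0.02, Ckm 0.00 and Epb42 0.02; quantile normalization gave Alas2 0.00, Cd3d -0.01 and Prss2 -0.02; array weights gave Epb42 0.00, Prss2 -0.00 and Ptcra -0.02; the replicate block gave S100a8 0.11. With 1 sample left out these and other genes ranged over Acta1 -0.43 to 0.72, Alas2 -0.20 to 0.25, C1qa -0.27 to 0.19, Cd3d -0.07 to 0.12, Cd3e -0.07 to 0.03, Cd79a -1.34 to 0.36, Cdkn1a -0.17 to 0.07, Cela1 -0.13 to 0.07, Ckm -0.26 to 0.16, Clps -0.62 to 0.16, Cpb1 -0.01 to 0.14, Epb42 -0.10 to 0.00, Fabp4 -0.16 to 0.94, Krt5 -0.29 to 1.01, Pax5 -0.39 to 0.11, Plin1 -0.11 to 1.62, Prss2 -0.11 to 0.11, Psmb11 -0.22 to 0.38, Ptcra -0.18 to 0.27, Rab27a -0.18 to 0.01, Reg1 -0.45 to 0.20 and S100a8 -0.61 to 0.30. Medians of 11 of the 35 lists took both signs over the alternatives; those of the liver, adipocyte, thymocyte identity, double positive, proliferation, repair, receptor, interferon and glucocorticoid lists did not. With 2 mdm2-null samples and a median SE of 0.177, small differences could not be resolved.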

Other observations

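Genes with wide gaps outside the lists were picked after their values were seen. Slc15a2, a peptide transporter, read 3.89 and 4.31 in the mdm2-null samples, against 7.13, 7.15 and 5.60 in the mdm2 wild-type samples (difference -2.53, limma adjusted p = 0.122). Igf2bp3, an RNA-binding protein of fetal tissue, read 4.37 and 4.16, against 6.31, 6.29 and 6.82 (difference -2.21, adjusted p = 0.152). Ptgs2, the inducible cyclooxygenase, read 4.59 and 5.36, against 6.63, 6.91 and 6.53 (difference -1.71, adjusted p = 0.0897). Retnla, a product of alternatively activated macrophages, read 9.17 and 9.43, against 7.12, 8.0 and 6.45 (difference 2.11, adjusted p = 0.157), where p53-null thymus gave -0.37. A feature shared by Serpina1a to Serpina1e, the antitrypsin genes of liver, read 10.55 and 11.56, against 3.33, 5.87 and 4.85 (difference 6.37, adjusted p = 0.0628). A feature shared by the aldo-keto reductases Akr1c13 and Akr1c12 read 8.65 and 8.68, against 7.48, 7.65 and 7.62 (difference 1.08, adjusted p = 0.0509).

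Of 12 measured clock genes, 1 was separated and higher and 4 separated and lower, a set also added after values were seen. Nr1d2, which encodes the repressor Rev-erb beta, read 7.03 and 7.76 in the mdm2-null samples, against 8.48, 8.60 and 8.48 in the mdm2 wild-type samples (difference -1.13, adjusted p = 0.0897), and Dbp, a clock output, read 7.48 and 7.68, against 7.61, 7.73 and 7.60. The time of day of collection is not given in the labels.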
